A study of Homo sapiens with 7 samples.

Results

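H1 human embryonic stem cells treated for 48 h with XMD892 were compared, gene by gene, with H1 cells kept for 48 h in the same medium without it, so that both sides were harvested at the same time. H1 is an established line of pluripotent cells derived from a human embryo, here wild type, and E8 is a defined medium that keeps such cells undifferentiated. The labels list its ingredients as DMEM/F12, sodium selenite, ascorbic acid, transferrin, insulin, FGF2 and TGFβ, which both sides received. XMD892 was given at 1 µM. Poly(A) RNA was sequenced in 2 libraries of E8 at 48 h and 2 libraries of XMD892 at 48 h, with 1 library at 12 h and 2 at 24 h of XMD892 as companions. The labels name no vehicle control and do not say whether the replicates of a group were separate cultures, so that p-values measure the spread between these libraries, which may be technical. Of the 19775 genes in the table, 16379 were compared, namely those whose normalised read count averaged at least 10 in the 4 libraries.

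XMD892, also written XMD8-92, is a small-molecule inhibitor of ERK5, the kinase encoded by MAPK7, which is activated by its upstream kinase MEK5, encoded by MAP2K5. The compound is also known to bind the kinase DCLK1, so a response to it is a response to the compound and not to ERK5 alone. ERK5 carries mitogen and stress signals to transcription factors such as those of the MEF2 family. Human embryonic stem cells in E8 divide fast, keep the core factors of pluripotency on, and express many genes of early lineages, of ion transport and of the matrix at low levels. Fold changes given below are ratios of the mean normalised read counts of the 2 libraries a side, and log2 fold changes with their standard errors come from limma on log2(normalised read count + 1).

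The 4 libraries held between 18759059 and 24148186 reads in the listed genes. The 15 markers of human embryonic stem cells summed to 234778 and 258348 in E8 and to 216616 and 233822 after XMD892. Of the 15, 4 were lower after XMD892. Trophoblast and amnion markers summed to 454 and 497 in E8 and to 182 and 235 after XMD892, with 2 of 3 tested lower. Of the 9 trophoblast and amnion markers 4 are listed. The part of these markers in the results below was not tested. Markers of neural cells, of which 6 were tested, with 2 higher and 1 lower, summed to 2439 and 2639 against 2267 and 2275. The other marker sets (neural crest, mesoderm, endoderm, fibroblasts) held 1 to 4 tested genes each, and the sums of neural crest and of fibroblast markers overlapped between the groups. Of the 4 fibroblast and stromal markers tested 3 were nonetheless lower, while the most abundant, COL1A2, was at 1388 and 1678 in E8 and at 2025 and 1791 after XMD892 and was not called. Mesoderm markers summed to 67.2 and 81.0 in E8 and to 59.4 and 42.6 after XMD892, and endoderm markers to 57.6 and 48.8 against 40.0 and 36.7, with 0 called in either set. In bulk RNA, fewer cells of a type and less RNA per cell cannot be told apart. MAPK7 was at 711 and 727 in E8 and at 672 and 764 after XMD892, and MAP2K5 at 331 and 353 against 320 and 314, and neither was called.

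At a limma adjusted p under 0.05 (Benjamini-Hochberg over all tested genes), 1910 of the 16379 genes were called, which is 11.7%. Of these, 840 were higher after XMD892 (5.13% of tested genes) and 1070 were lower (6.53%). The median log2 fold change over all tested genes was 0.02. Leaving out single libraries moved these counts: without E8 replicate 2 there were 4075 calls, of which 2399 were higher, without E8 replicate 1 there were 1611, without the first library of 48 h 772 and without the second 799. Direction and call held in each of 22 alternative settings for 107 of the higher genes (12.7%) and 352 of the lower genes (32.9%). These are called stable calls below, and each gene described as higher or lower is one of them unless the sentence gives the setting that ended its call. Ranges given with the count of a family are the lowest and highest counts when each of the 4 libraries was left out in turn. In 129 of 129 lists with 10 or more tested members the fewest lower calls came without a library of 48 h, and in 127 the most higher calls came without E8 replicate 2, ties included.

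GC content of the transcripts set the 2 E8 libraries apart. Across 16054 genes, the log2 difference between them had a Spearman correlation with GC of -0.64, against 0.21 for the 2 libraries of 48 h. Genes of high GC were called higher more often: 263 of the 3211 genes in the highest of 5 GC classes of equal size, against 38 of 3211 in the lowest. Lower calls numbered 222 in the highest class and 214 in the lowest. This evenness did not hold with 1 E8 library. Without E8 replicate 2 the share called lower fell from 19.3% in the lowest class to 4.86% in the highest, and without E8 replicate 1 it rose from 3.74% to 10.5%. With the GC trend of each library removed, 352 and 199 genes of those classes were called higher and 3113 genes in all. The part of this difference in single genes was not tested, beyond the settings that a stable call had to pass.

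**Figure D1:**
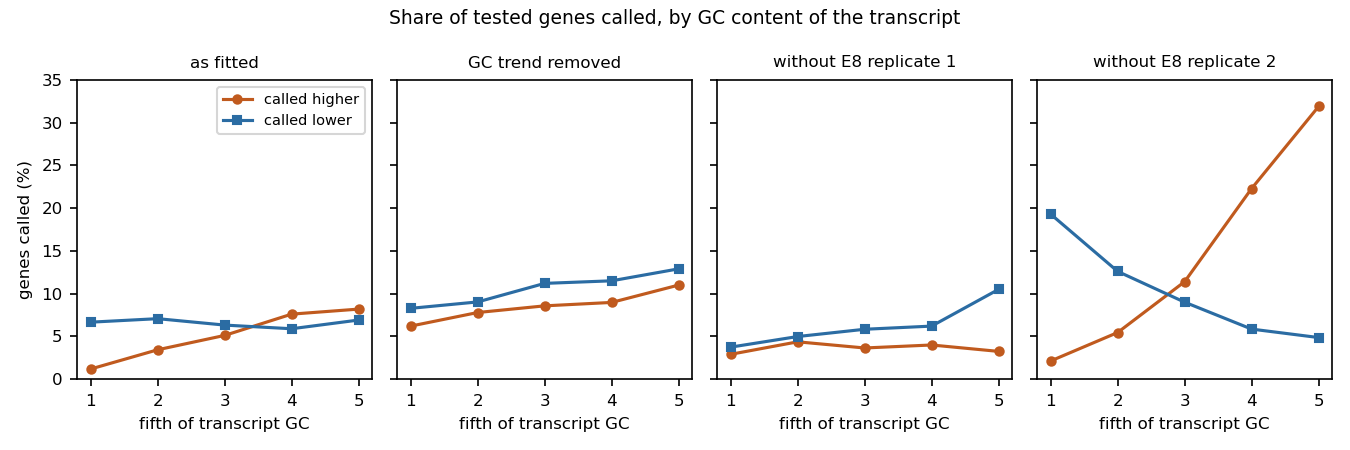
Share of tested genes called higher (circles) and lower (squares) after 48 h of XMD892 (vertical axis, percent) in 5 classes of transcript GC content (horizontal axis, 1 is the lowest GC), for the fit as made, with the GC trend of each library removed, and without each E8 library. Without E8 replicate 2 the share called higher ran from 2.12% to 31.9% across the classes, while without E8 replicate 1 it lay between 2.90% and 4.36%. The share called lower ran from 19.3% down to 4.86% without E8 replicate 2 and from 3.74% up to 10.5% without E8 replicate 1.

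Several abundant genes were lower after XMD892. KAT7 encodes the acetyltransferase HBO1, which acetylates histones around replication origins and promoters. KAT7 (chromosome 17, 49788555 to 49835030) was at 8752 and 7421 in E8 and at 2773 and 2292 after XMD892, 3.19-fold lower (log2 fold change -1.68 ± 0.15, adjusted p 1.1e-07). The groups did not overlap, which held for 52.5% of all tested genes, and KAT7 was at 2237 at 12 h. TERF1, a protein that binds telomere repeats, was at 15096 and 12325 against 5908 and 6187, 2.27-fold lower. GJA1, the gap junction protein connexin 43, was at 18110 and 14938 against 8475 and 7960, 2.01-fold lower (adjusted p 5.9e-05). ITGB5, an integrin that binds vitronectin, was 1.93-fold lower. Of the 9 connexins and pannexins tested GJA1 alone was called. Of the 18 genes of the integrin list, which includes integrin-binding proteins, ITGB5, ITGA9 (2.53-fold lower) and ITGB8 were called. ITGB8 lost its call without the first library of 48 h (adjusted p 0.37).

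Among genes of middling abundance the falls were steeper. ETS1, a transcription factor that acts downstream of mitogen signals, was at 1579 and 1379 in E8 and at 334 and 330 after XMD892, 4.46-fold lower (log2 fold change -2.15 ± 0.17, adjusted p 1.5e-08). TRIML2, a tripartite motif family protein, was at 1579 and 1606 against 272 and 231, 6.33-fold lower. PLBD1, a phospholipase B-like protein named here after its values were seen, was at 1441 and 1329 against 262 and 221, 5.73-fold lower. For these genes both treated libraries lay far below both E8 libraries. D21S2088E, a noncoding transcript of chromosome 21, was at 547 and 472 against 44.3 and 29.8. SPON1, a secreted adhesion protein of the floor plate, was 8.16-fold lower, and DACT1, an inhibitor of WNT signalling, was 7.05-fold lower. IDO1, which breaks down tryptophan, was at 161 and 117 against 9.72 and 17.9, 10.1-fold lower. CDA, which recycles cytidine, and TNMD, a membrane protein of tendon, were 6.65-fold and 6.61-fold lower.

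Other abundant genes rose. SFRP1, a secreted inhibitor that binds WNT proteins, had the largest gain in mean among stable calls. It was at 4779 and 5182 in E8 and at 12483 and 12481 after XMD892, 2.51-fold higher (log2 fold change 1.33 ± 0.14, adjusted p 1.0e-06). HMGN2, a nucleosome-binding protein, was at 7013 and 7009 against 10918 and 12187, 1.65-fold higher. RPL23A, a ribosomal protein, was 2.18-fold higher. MT-ATP8, a small ATP synthase subunit whose gene overlaps MT-ATP6 on the mitochondrial genome, was at 1125 and 1141 against 3558 and 3335, 3.04-fold higher. Of the 13 tested respiratory chain genes of that genome it alone was called. Their median log2 fold change was -0.25, and 11 of the 13 were below 0. Reads of the overlap may be shared between the genes. PRTG, a cell surface protein of the early neural tube and mesoderm, was at 121 and 108 against 326 and 361, 2.99-fold higher. CIRBP, an RNA-binding protein induced by cold and named here after its values were seen, was at 1921 and 2880 against 5139 and 5534, 2.22-fold higher. In each of the genes named in this paragraph both treated libraries lay above both E8 libraries. Genes named for the largest fold changes were chosen with the groups apart, and 52.5% of all tested genes had them apart.

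**Figure D2:**
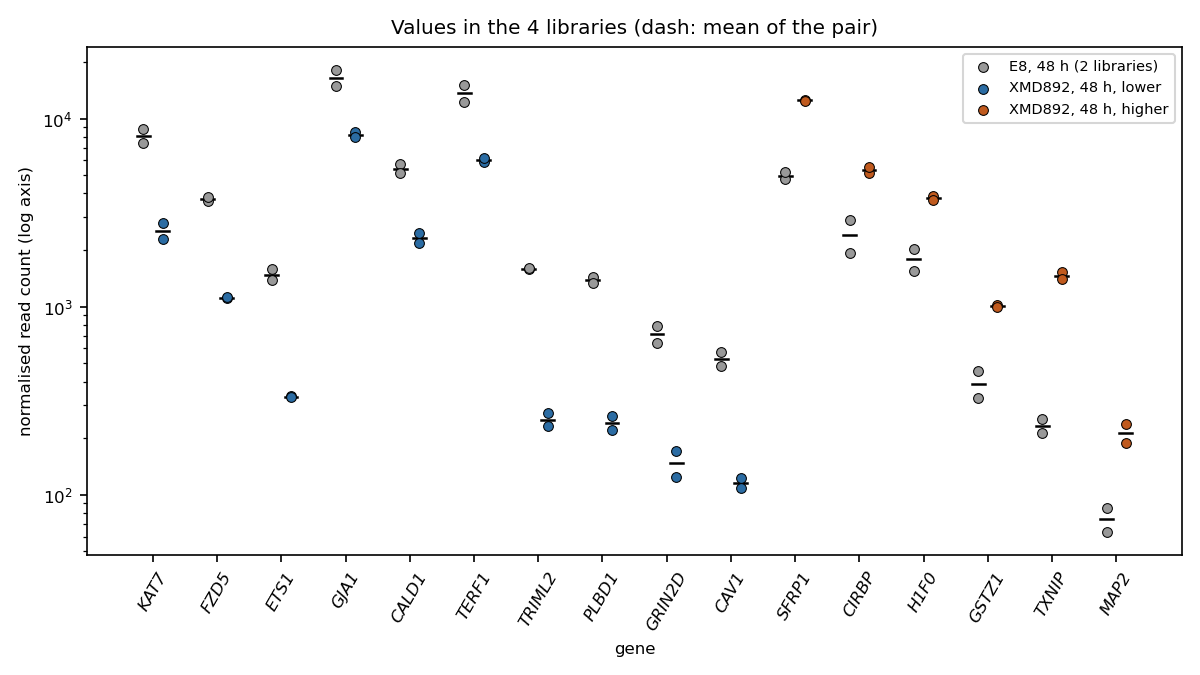
Normalised read counts (vertical log axis) of 16 genes (horizontal axis) in each of the 2 E8 libraries (grey) and the 2 libraries of 48 h of XMD892 (blue where lower, orange where higher), with a dash at the mean of each pair. In each gene shown the pairs do not overlap, from KAT7 at 8752 and 7421 against 2773 and 2292 to MAP2 at 85.6 and 63.6 against 189 and 237. Pairs lay apart in 52.5% of all tested genes, and some of the genes shown were chosen for it.

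Ion channel genes were called lower more often than genes at large. The part of their level and transcript length in this was not tested. Ligand-gated channels open when a transmitter binds, and in neurons they carry fast synaptic signals. Of 40 tested ligand-gated channels 11 were lower, 0 higher and 29 not called, with a median log2 fold change of -0.47; the count of lower genes lay between 6 and 12 with 1 library left out. GRIN2D, an NMDA receptor subunit (chromosome 19, 48394875 to 48444931), was at 638 and 790 in E8 and at 125 and 171 after XMD892, 4.83-fold lower (adjusted p 1.6e-07). Its partners GRIN1, the obligate subunit, and GRIN2A were at 114 and 131 against 47.5 and 59.5, and at 98.7 and 108 against 48.6 and 35.7. GRIN1 lost its call without the first library of 48 h (adjusted p 0.09) and GRIN2A without the second (0.089). CHRNB4, a nicotinic receptor subunit, was 2.42-fold lower.

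Potassium channels set the resting potential of a cell. Of 54 tested, 12 were lower (7 to 10 with 1 library left out), 2 were higher (0 to 4) and the median was -0.43. KCNS1, a silent subunit that modifies Kv2 channels, was at 90.8 and 91.7 in E8 and at 25.9 and 31.7 after XMD892, 3.17-fold lower. The other stable calls, named after their values were seen, were KCNQ3, KCNAB1, KCNK6 and KCNC4, lower by 2.95-fold, 2.93-fold, 2.56-fold and 2.10-fold. KCNQ3 encodes a subunit of the M-channel. Among 85 sodium, calcium, chloride and TRP channels 16 were lower (6 to 14) and 4 higher (0 to 7), with a median of -0.21. The stretch-activated channel PIEZO1, the calcium-activated chloride channel ANO1 and the calcium channel subunit CACNA2D3, again named after their values were seen, were 1.89-fold, 3.34-fold and 2.47-fold lower.

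**Figure D3:**
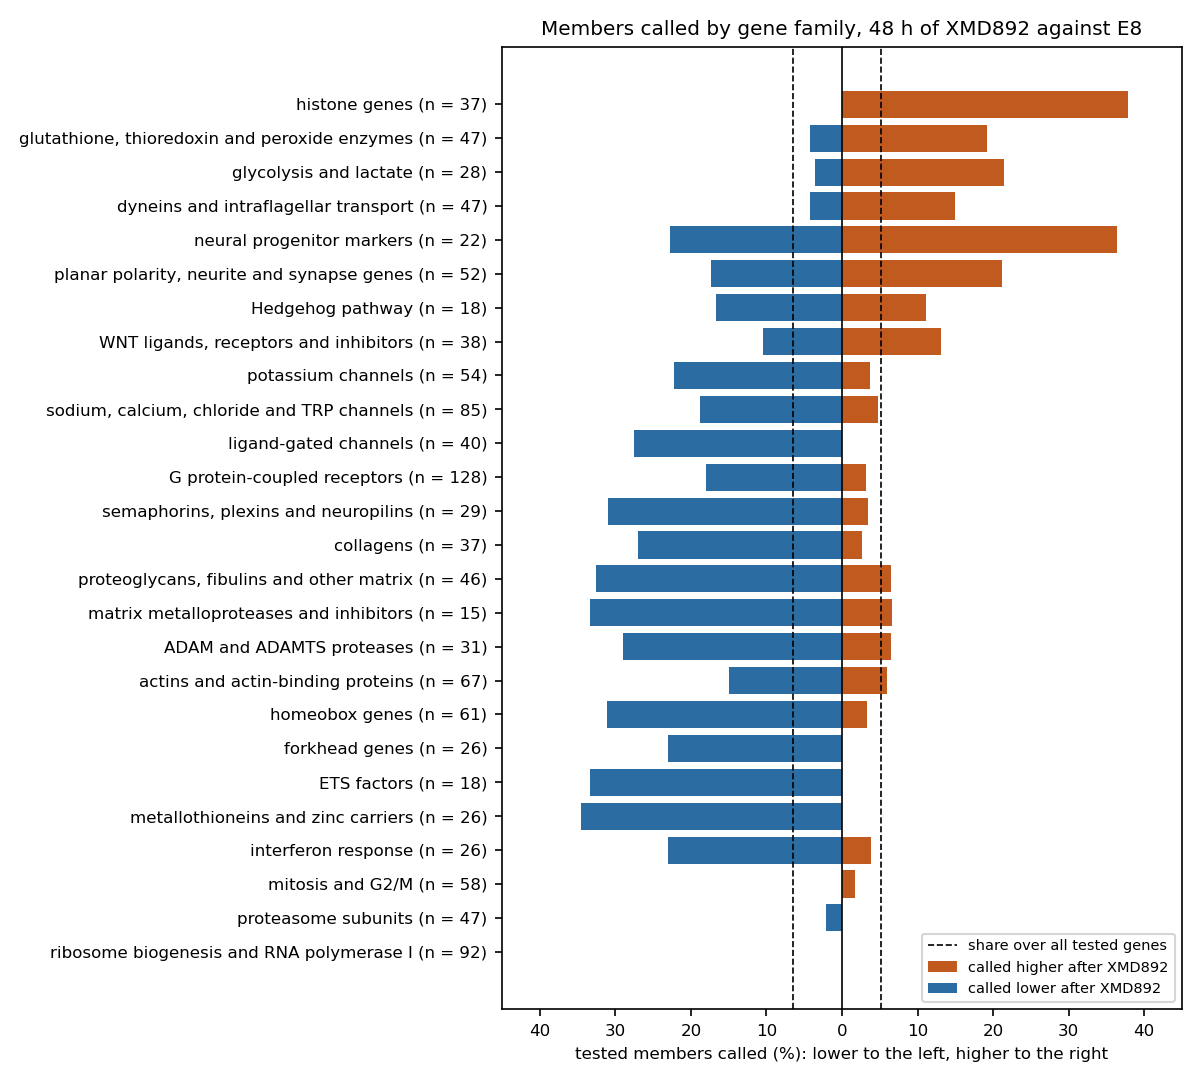
Share of the tested members of 26 gene lists (vertical axis, n in brackets) called lower (blue, to the left) or higher (orange, to the right) after 48 h of XMD892, in percent of tested members. Dashed lines mark the shares over all tested genes, 6.53% lower and 5.13% higher. Histone genes stand out on the right with 14 of 37, and ligand-gated channels, homeobox genes and metallothioneins with zinc carriers on the left with 11 of 40, 19 of 61 and 9 of 26.

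G protein-coupled receptors, the largest receptor family, had 23 of 128 tested members lower (10 to 24 with 1 library left out) and 4 higher (0 to 8), with a median of -0.21. In all, 21.1% of these receptors were called, against 11.7% of all tested genes. FZD5 is a receptor for WNT proteins. FZD5 (chromosome 2, 207762586 to 207769563) was at 3646 and 3852 in E8 and at 1108 and 1125 after XMD892, 3.36-fold lower (log2 fold change -1.75 ± 0.14, adjusted p 3.5e-08). Its relatives FZD7, FZD2 and FZD1 were called higher, without holding in every setting: FZD7 was at 2215 and 2294 against 3104 and 3281. FZD7 lost its call without the second library of 48 h (adjusted p 0.19), as did FZD1 (0.17), and FZD2 lost it in 8 settings, with 0.46 when the GC trend was removed and E8 replicate 2 left out. ADRA2A, an adrenaline receptor, was 6.80-fold lower. PTH1R, the parathyroid hormone receptor, was at 162 and 174 against 27.0 and 30.7, 5.82-fold lower. ADGRG6, an adhesion receptor of Schwann cells, was 4.78-fold lower and HTR1D, a serotonin receptor, 3.79-fold lower. P2RY1, an ADP receptor named after its values were seen, was at 4669 and 3964 against 1860 and 2053, 2.21-fold lower.

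WNT pathway genes were called in both directions. Of 38 tested WNT ligands, receptors and inhibitors 5 were higher (1 to 8 with 1 library left out) and 4 lower (3 to 6). The stable calls were SFRP1 upward and FZD5 and the ligand WNT3 downward.

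Guidance cues and other receptors had calls in both directions. Semaphorins are secreted or membrane cues that steer axons and migrating cells, and plexins and neuropilins are their receptors. Of 29 tested, 9 were lower (5 to 9 with 1 library left out), 1 was higher (0 to 5) and 19 were not called. SEMA6A was at 18073 and 18286 in E8 and at 11457 and 10123 after XMD892, 1.68-fold lower. SEMA4A, SEMA3C and SEMA3A were lower by 2.88-fold, 2.60-fold and 1.96-fold, and the receptor NRP2 by 1.95-fold (898 and 943 against 502 and 443). Of 20 Eph receptors and ephrins 2 were higher (0 to 5) and 2 lower (1 to 2). EPHB6, an Eph receptor that lacks kinase activity, was 2.41-fold lower, and the ligands EFNA4 and EFNB1 were called higher but not without the second (adjusted p 0.064) and the first library of 48 h (0.18). Netrins, slits, robos and their receptors had 2 of 18 called, each lower, which is 11.1% and near the share over all tested genes. Of 30 other receptor tyrosine kinases 2 were higher (0 to 3) and 4 lower (2 to 5), and the higher ones, FGFR3 and FLT1, lost their calls without the first (0.12) and the second library of 48 h (0.22). MET, the receptor of hepatocyte growth factor, was at 477 and 372 against 167 and 184, 2.41-fold lower. PTPRB, a phosphatase that acts on endothelial receptors, was at 522 and 511 against 116 and 81.3, 5.25-fold lower. IL6R, a chain of the interleukin-6 receptor, was 5.38-fold lower. Of the 16 receptor tyrosine phosphatases 3 were called, each lower (2 to 4), and of the 24 interleukins and their receptors 5, each lower (3 to 6).

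Several families of extracellular matrix genes had more lower than higher calls. Collagens are the structural fibres and sheets of the matrix. Of 37 tested, 10 were lower (7 to 15 with 1 library left out) and 1 higher (0 to 7), with a median of -0.33. COL6A1, a chain of the beaded filaments, was at 7098 and 9674 in E8 and at 5044 and 4722 after XMD892, 1.72-fold lower. COL6A3, its partner chain, was at 38.4 and 67.8 against 5.40 and 8.93. COL12A1, a chain that decorates collagen fibres, was at 464 and 419 against 157 and 149, 2.89-fold lower. COL8A1 and COL8A2, the chains of a network collagen, were 9.80-fold and 2.87-fold lower. The abundant basement membrane collagen COL4A2 was not called, at 3641 and 6152 against 6199 and 6474.

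Of 46 other matrix genes 15 were lower (6 to 15 with 1 library left out) and 3 higher (0 to 6). The elastic fibre genes ELN and MFAP4 were 3.40-fold and 4.01-fold lower, and the thrombospondin THBS4 2.35-fold lower. Among 17 laminins and basement membrane genes 3 were lower (1 to 4) and 2 higher (0 to 2). LAMC3 was at 538 and 766 against 246 and 227, 2.75-fold lower. AGRN and LAMB2 were higher by 1.38-fold and 1.49-fold, and lost their calls without E8 replicate 1 (adjusted p 0.22) and without the first library of 48 h (0.24). LOXL2, which crosslinks collagen, was at 987 and 1268 against 2200 and 1788 and lost its call without the first library of 48 h (0.067).

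Of the enzymes that cut or decorate the matrix, some members were lower and most were not called. Of 15 matrix metalloproteases and their inhibitors 5 were lower (4 to 5 with 1 library left out) and 1 higher (0 to 2). MMP2, a gelatinase, was at 1730 and 1881 in E8 and at 1046 and 906 after XMD892, 1.85-fold lower. MMP24 was at 437 and 486 against 136 and 106, 3.81-fold lower, and MMP9, the other gelatinase, at 106 and 173 against 17.3 and 26.8, 6.32-fold lower. The inhibitor TIMP4 was 3.09-fold lower. Of 31 ADAM and ADAMTS proteases 9 were lower (3 to 8) and 2 higher (0 to 5), with ADAMTS8 and ADAMTS2 the stable calls at 2.34-fold and 2.25-fold lower. Heparan sulfate is the sugar chain on which FGF and WNT proteins are held at the cell surface. SULF1, which removes sulfate from it, was at 487 and 459 against 185 and 165, 2.71-fold lower. HS3ST3B1, which adds a sulfate, was 2.75-fold lower, and the proteoglycan GPC6 1.82-fold lower. The heparan sulfate list went both ways: of 30 tested 6 were lower (3 to 7) and 3 higher (0 to 5), and its median was 0.00. HAS2, which makes hyaluronan, was at 171 and 164 against 35.6 and 32.7, 4.91-fold lower. MGAT4C, a branching enzyme of N-glycans, was at 169 and 101 against 7.56 and 11.9.

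Markers of fibroblasts and stroma, several of which are matrix genes themselves, moved with these families. In a list of 12 tested markers 6 were lower (3 to 5 with 1 library left out) and 0 higher (0 to 1). TWIST2, a transcription factor of connective tissue, was at 201 and 155 in E8 and at 68.0 and 77.4 after XMD892. COL1A1 and the receptor PDGFRB lost their calls without the second and the first library of 48 h (adjusted p 0.15 and 0.24). The part of such cells in the falls of matrix genes was not tested.

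Actin-binding genes included some of the clearer falls in the cytoskeleton. CALD1 encodes caldesmon, which binds actin and myosin. CALD1 (chromosome 7, 134744252 to 134970728) was at 5726 and 5113 in E8 and at 2182 and 2473 after XMD892, 2.33-fold lower (adjusted p 5.0e-06). DIAPH2, a formin that nucleates actin filaments, was 2.50-fold lower, and ACTA1 and ACTN3, actin and actinin isoforms of skeletal muscle, were 4.63-fold and 2.45-fold lower. In all, 10 of 67 actins and actin-binding genes were lower (4 to 12 with 1 library left out) and 4 higher (0 to 8). The cytoplasmic actins were not called: ACTB was at 89295 and 82696 against 76959 and 77124. CAV1 and CAV2 encode the coat proteins of caveolae and were named after their values were seen. CAV1 was at 573 and 486 against 123 and 109, 4.56-fold lower, and CAV2 was 4.20-fold lower.

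Tubulins, the subunits of microtubules, divided. TUBB6 was at 8827 and 11312 in E8 and at 5424 and 4076 after XMD892, 2.12-fold lower, and TUBA4A was 2.09-fold lower. TUBA1A, TUBB2B and TUBB3, isoforms abundant in neurons, were called higher by 1.44-fold, 1.51-fold and 1.87-fold. TUBA1A and TUBB2B lost that call without the first library of 48 h (adjusted p 0.26 and 0.22), and TUBB3 without E8 replicate 1 (0.18). Of 47 dyneins and intraflagellar transport genes 7 were higher (2 to 8 with 1 library left out) and 2 lower (0 to 1). DYNLL2, a dynein light chain, was at 2233 and 3282 against 5098 and 5187, 1.86-fold higher, and was the stable call among them.

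Neural progenitor markers had calls in both directions. These genes mark the neural plate and young neurons, and several are on at low levels in pluripotent cells. Of 22 tested, 8 were higher (3 to 8 with 1 library left out), 5 lower (2 to 5) and 9 not called. MAP2, a microtubule protein of dendrites, was at 85.6 and 63.6 in E8 and at 189 and 237 after XMD892, 2.86-fold higher. SOX3, a transcription factor of neural progenitors, was at 1058 and 1139 against 1933 and 2021, 1.80-fold higher. The adhesion protein NCAM1 was at 196 and 211 against 536 and 431, 2.38-fold higher. SOX1 was at 33.2 and 48.8 against 79.9 and 111 and lost its call without the second library of 48 h (adjusted p 0.17). The forebrain factors SIX3 and FEZF1 went the other way. SIX3 was at 718 and 728 against 307 and 341, 2.23-fold lower, and FEZF1 at 402 and 363 against 205 and 188, 1.94-fold lower. LHX5 and HESX1 were also called lower, but LHX5 not without the first library of 48 h (0.2), and HESX1 not without E8 replicate 2 and with the GC trend removed (0.16).

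Genes of planar polarity, neurites and synapses had 11 of 52 tested members higher (2 to 16 with 1 library left out) and 9 lower (4 to 11). NRGN, a calmodulin-binding protein of dendrites, was 3.20-fold higher, at 19.2 and 14.9 in E8 against 48.6 and 60.5 after XMD892. DLG2, a scaffold of the postsynaptic density, was 3.57-fold lower, HOMER2 1.75-fold lower, and DCLK1, a microtubule-binding kinase and a known target of the compound, 2.13-fold lower at 1208 and 989 against 513 and 517. DPYSL3, a collapsin response mediator and the most abundant member, was at 21375 and 19489 against 14283 and 11185 and lost its call without the second library of 48 h (adjusted p 0.12). Secretory granule genes also split, with 6 of 24 lower (3 to 7) and 4 higher (0 to 5). The neuropeptide GAL was at 1311 and 1548 against 527 and 552, 2.65-fold lower. CHGA, a granule core protein, was at 48.9 and 107 against 155 and 177 and lost its call without E8 replicate 1 (0.07).

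Homeobox genes encode transcription factors that pattern the embryo. Of 61 tested, 19 were lower (12 to 19 with 1 library left out), 2 higher (1 to 9) and 40 not called, with a median of -0.22. Of the 19, 10 were stable calls. NKX1-2, a factor of the caudal embryo, was at 2205 and 1981 in E8 and at 756 and 726 after XMD892, 2.82-fold lower (adjusted p 6.3e-07). HHEX, a factor of the anterior endoderm, was 3.72-fold lower, and LHX4, a factor of the pituitary, 2.85-fold lower. POU5F1, the most abundant homeobox gene, was at 46006 and 67034 against 57249 and 67878 and was not called. NANOG, in the same list, was lower, at 6631 and 5818 against 2552 and 3046. In a separate list of 28 markers of pluripotent cells 8 were lower and 1 higher (32.1% called), and 5 of the 8 were stable calls.

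Other families of transcription factors differed in their counts, and 11.7% of all tested genes were called. The share called was 24.2% in SOX and HMG genes, 23.1% in forkhead genes and 33.3% in ETS factors. In KLF and EGR factors it was 9.09%, near the share over all tested genes. SOX and HMG genes had 4 higher (2 to 9 with 1 library left out) and 4 lower (1 to 4) of 33, KLF and EGR factors 1 higher and 1 lower of 22, and ZNF zinc finger genes 13 higher (4 to 34) and 17 lower (5 to 49) of 462, or 6.49% called. Of 26 forkhead genes 6 were lower (4 to 8 with 1 library left out) and 0 higher. FOXO4, a factor held in the cytoplasm by insulin signalling, was at 1005 and 1459 in E8 and at 674 and 515 after XMD892, 2.07-fold lower. FOXL2 and FOXB1 were 2.05-fold and 1.79-fold lower. Of 18 ETS factors 6 were lower (2 to 8) and 0 higher (0 to 1). Beside ETS1, ETV1 was at 1998 and 1610 against 1003 and 1045, 1.76-fold lower. GATA2, a factor of blood and trophoblast, was 10.9-fold lower. HES3 and HEY1, repressors of the family that NOTCH signals switch on, were 1.71-fold and 2.76-fold lower. MXD4, an antagonist of MYC, was at 387 and 492 against 1098 and 1168, 2.58-fold higher.

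Hedgehog pathway genes were called in both directions, 27.8% of 18 tested members against 11.7% of all tested genes. Their median log2 fold change was -0.00, and whether signalling by the pathway changed was not tested. Hedgehog proteins bind the receptor PTCH1, which releases SMO to activate the GLI factors, and SUFU holds GLI factors inactive. GLI1 and PTCH1 are direct targets of the pathway. GLI1 was at 460 and 480 in E8 and at 246 and 228 after XMD892, 1.98-fold lower. PTCH1 was at 2083 and 2186 against 1164 and 1035, 1.94-fold lower. SUFU was at 285 and 323 against 681 and 595, 2.10-fold higher (adjusted p 0.00023). In all, 3 of the 18 tested members were lower (2 to 3 with 1 library left out) and 2 higher (1 to 2), so that the genes that moved included both outputs and an inhibitor.

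Histone genes were the list with the highest median. Of 37 tested, 14 were higher (7 to 18 with 1 library left out), 0 lower and 23 not called, and the median log2 fold change was 0.71. Of the 14, 5 were stable calls, among them H2AFY, H1F0 and HIST1H2AC, which were named after their values were seen. H2AFY, the variant macroH2A1, was at 1587 and 1803 in E8 and at 3325 and 3578 after XMD892, 2.04-fold higher. H1F0, a linker histone of cells that leave the cycle, was at 1554 and 2038 against 3878 and 3708, 2.11-fold higher. HIST1H2AC was at 115 and 96.7 against 246 and 263. The replacement histones H3F3A and H3F3B were the most abundant members and were not called, H3F3A standing at 11044 and 11192 against 11741 and 11420. Most replication histone messages carry no poly(A) tail, and libraries of poly(A) RNA sample them poorly. Near-identical copies within the clusters can share reads, so values of single clustered genes are uncertain.

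Other chromatin genes were called one by one. EPOP and PHC2, members of Polycomb complexes, were 1.81-fold and 1.93-fold higher, and SMYD2, a lysine methyltransferase, was 1.84-fold higher. CHD5, a remodeller of neurons, was 2.67-fold lower. A list of 47 genes of histone acetylation and bromodomains, which does not hold KAT7, had 1 higher (1 to 10 with 1 library left out) and 0 lower (0 to 2), with a median of 0.07. That list also holds HEXIM1, a gene of neither group, so its counts are not of acetylation and bromodomain genes alone. KAT7, described above as lower, is a histone acetylation gene outside the list.

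**Figure D4:**
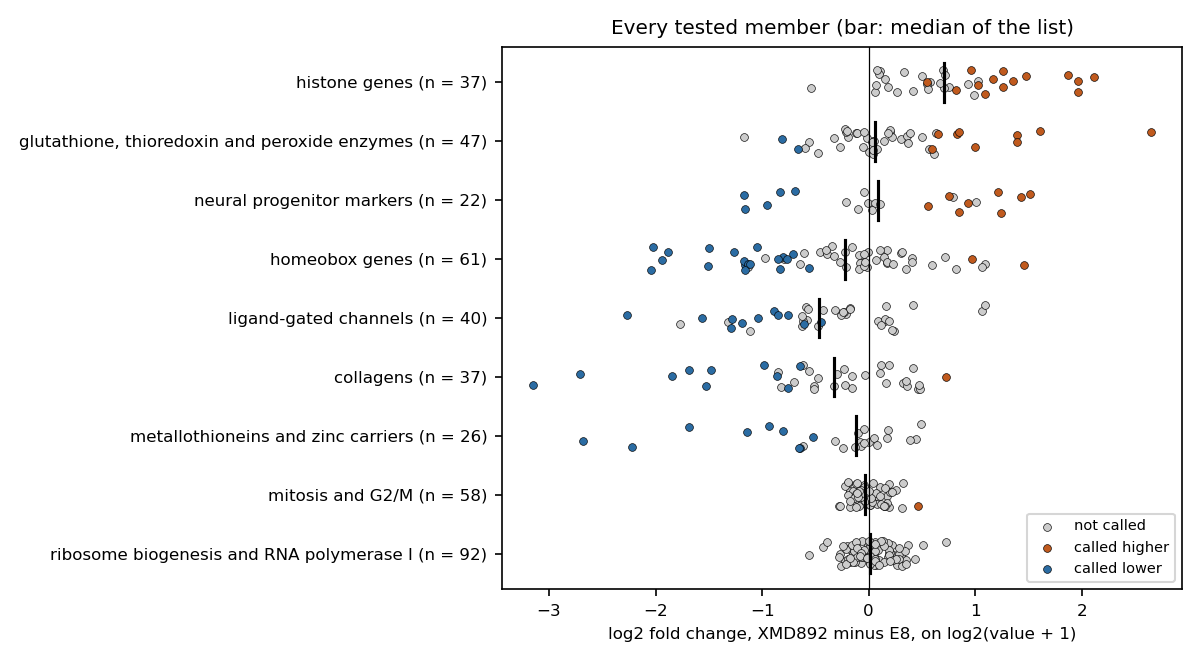
Log2 fold change (horizontal axis) of every tested member of 9 gene lists (vertical axis, n in brackets), orange where called higher, blue where called lower and grey where not called, with a bar at the median of the list. The median was 0.71 in histone genes and -0.47 in ligand-gated channels, and members of the mitosis and ribosome biogenesis lists crowd around 0.

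Redox genes were called higher more often than lower. Of 47 genes of glutathione, thioredoxin and peroxide metabolism 9 were higher (4 to 16 with 1 library left out) and 2 lower (0 to 4). TXNIP binds and inhibits thioredoxin and lowers glucose uptake, and its relative ARRDC4 shares that action; both are known targets of the glucose sensor MondoA. TXNIP was at 212 and 253 in E8 and at 1522 and 1403 after 48 h of XMD892, 6.29-fold higher. ARRDC4 was at 114 and 101 against 311 and 349, 3.07-fold higher (adjusted p 1.1e-05). GSTZ1, a glutathione transferase of tyrosine breakdown, was at 326 and 454 against 1024 and 993, 2.58-fold higher. The reductase TXNRD3 was 2.59-fold higher. NQO1 and GSTO1 were called lower, but NQO1 not without the second library of 48 h (adjusted p 0.12) and GSTO1 not without the first (0.14).

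Glycolysis genes were called higher in 6 of 28 cases (1 to 9 with 1 library left out) and lower in 1 (0 to 3). PKM, which makes pyruvate, was at 13094 and 15298 in E8 and at 24214 and 19706 after XMD892, and lost its call without the first library of 48 h (adjusted p 0.17). TPI1 lost its call in the same setting (0.26). Over all tested genes 5.13% were called higher, and 11.7% in either direction. Nuclear genes of the respiratory chain had 12 of 99 higher (12.1%) and mitochondrial ribosomal proteins 9 of 77 (11.7%). Mitochondrial import and dynamics had 8 of 46 higher (17.4%) and cytosolic ribosomal proteins 9 of 85 (10.6%), with 0 lower in each of these lists. These counts rested on single libraries: they ranged from 3 to 47, 0 to 21, 0 to 20 and 2 to 39 when 1 library was left out, with the highest count of each without E8 replicate 2. NDUFA2, a subunit of complex I, was at 377 and 563 against 988 and 930, 2.04-fold higher.

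Enzymes of retinoid and polyamine metabolism were among the single calls. ALDH1A1 makes retinoic acid and CYP26A1 breaks it down, and both were lower: ALDH1A1 was at 41.9 and 43.8 in E8 and at 2.16 and 5.95 after XMD892, and CYP26A1 at 93.4 and 81.8 against 33.5 and 19.8. ALDH1A3, a relative of ALDH1A1, was 2.17-fold lower and lost its call without the second library of 48 h (adjusted p 0.066). LRAT, which stores retinol as an ester and was named after its values were seen, was at 2308 and 2002 against 3696 and 4102, 1.81-fold higher. ODC1 makes the polyamine putrescine and SAT1 marks polyamines for export. ODC1 was at 2757 and 2888 against 5628 and 5563, 1.98-fold higher, and SAT1 at 1075 and 1211 against 637 and 641, 1.79-fold lower. PLA2G16, a phospholipase, was at 759 and 1014 against 157 and 108, 6.70-fold lower, and HPGD, which inactivates prostaglandins, was 7.15-fold lower.

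Solute carriers move ions, sugars, amino acids and drugs across membranes. Of 232 members 24 were lower (15 to 37 with 1 library left out) and 4 higher (1 to 28), together 12.1%, which is near the share over all tested genes. SLC22A3, a transporter of organic cations, was at 260 and 284 in E8 and at 40.0 and 39.7 after XMD892, 6.84-fold lower. SLC47A1, another exporter of cations, was 4.31-fold lower. SLC24A2, a sodium, calcium and potassium exchanger, was 3.22-fold lower, and SLCO5A1, an organic anion transporter, 2.26-fold lower. SLC1A3, a glutamate transporter named after its values were seen, was at 1820 and 1560 against 889 and 834, 1.96-fold lower.

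Metallothioneins are small proteins that bind zinc and copper, and their genes stand in a cluster on chromosome 16. They are switched on by the zinc sensor MTF1 at metal response elements, whose core is TGCACNC or TGCGCNC. The 3 promoters of the family with a RefSeq entry (GRCh38.p14) are shown because the genes of the cluster differed in how far they moved; each is the 250 bases before the start site on the plus strand, 5′ to 3′, with every match to the core on either strand in capitals.

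MT2A, chr16:56608334-56608583: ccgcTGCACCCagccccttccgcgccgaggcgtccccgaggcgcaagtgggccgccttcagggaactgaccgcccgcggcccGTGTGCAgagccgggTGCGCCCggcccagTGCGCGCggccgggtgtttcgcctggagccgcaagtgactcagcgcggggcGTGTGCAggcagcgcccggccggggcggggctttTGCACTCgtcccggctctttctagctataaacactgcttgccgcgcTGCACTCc
MT1H, chr16:56669564-56669813: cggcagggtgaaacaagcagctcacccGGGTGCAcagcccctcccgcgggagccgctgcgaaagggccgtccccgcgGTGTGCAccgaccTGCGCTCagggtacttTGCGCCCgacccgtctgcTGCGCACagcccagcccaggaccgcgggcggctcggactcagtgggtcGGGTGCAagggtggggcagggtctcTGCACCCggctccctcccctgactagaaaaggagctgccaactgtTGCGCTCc
MT1X, chr16:56682220-56682469: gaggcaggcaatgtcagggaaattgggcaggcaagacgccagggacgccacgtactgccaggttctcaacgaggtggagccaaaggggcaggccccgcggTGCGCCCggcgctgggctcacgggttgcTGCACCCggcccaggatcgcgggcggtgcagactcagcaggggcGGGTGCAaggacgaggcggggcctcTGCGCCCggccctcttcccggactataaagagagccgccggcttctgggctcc

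The windows hold 7, 8 and 4 matches in MT2A, MT1H and MT1X. Of 27305 promoters of the same length, 24.7% hold at least 1 match, 0.366% hold 4 or more and 0.0183% hold 8 or more. A match is a run of letters and not a site shown to be bound. Of the 26 metallothioneins and zinc carriers tested, 9 were lower (6 to 10 with 1 library left out) and 0 higher (0 to 3). MT1H was at 131 and 91.7 in E8 and at 23.8 and 21.8 after XMD892, 4.89-fold lower. MT1G, its neighbour on the opposite strand, was at 807 and 633 against 274 and 179, 3.18-fold lower. MT1E was 1.93-fold lower, and MT2A was 1.44-fold lower but lost its call without the first library of 48 h (adjusted p 0.19). MT1F and MT1X were not called; MT2A, MT1F and MT1X were named for their place in the cluster, after their values were seen. The 2 treated libraries differed in MT1X, at 132 and 385, against 295 and 407 in E8. Some zinc importers were called lower, while others, such as SLC39A1, SLC39A6 and SLC39A7, were not called. SLC39A8 was at 1376 and 1212 against 751 and 737, 1.74-fold lower. SLC39A14 lost its lower call without the second library of 48 h, and SLC39A10 without the first. Metallothionein messages are near-identical in places, so reads may be shared between them.

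Immune genes were called lower more often than higher. Of 26 interferon response genes 6 were lower (3 to 7 with 1 library left out) and 1 higher (0 to 2). EIF2AK2, the kinase PKR that senses double-stranded RNA, was at 2327 and 2006 in E8 and at 1260 and 1272 after XMD892, 1.71-fold lower. TRIM22, an antiviral ubiquitin ligase, was at 358 and 321 against 116 and 97.2, 3.19-fold lower. PARP9, DTX3L and PARP14, which work together in the response to interferon, stand side by side on chromosome 3 and were named after their values were seen. PARP14 was at 786 and 664 against 253 and 301, 2.62-fold lower, DTX3L 2.82-fold lower and PARP9 3.98-fold lower. Of 21 genes of antigen presentation 4 were lower (1 to 5) and 1 higher (0 to 5). PSMB8 and TAP1 lost their calls without the first and the second library of 48 h (adjusted p 0.12 and 0.059). NLRP1, an inflammasome sensor, was at 89.1 and 118 against 222 and 291, 2.48-fold higher.

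Called genes also lay next to each other in other places. Runs of at least 3 neighbouring tested genes called in 1 direction numbered 17, of which 16 were lower and 1 higher. The longest, of 6 genes, lies in the imprinted region of chromosome 15 between 24978583 and 25419462. There SNHG14, the long host of small nucleolar RNAs read from the paternal copy, was at 20954 and 18204 in E8 and at 11633 and 11038 after XMD892, 1.73-fold lower. PWAR6 was 2.10-fold lower, at 7944 and 5430 against 2623 and 3761, and PWAR5 3.75-fold lower. The coding genes SNRPN and UBE3A at either end of the SNHG14 transcript were not called. Within this run AC124312.4 shares 121 exon bases with PWAR5 on the same strand. AC124312.2 shares 175 with PWAR6 on the opposite strand. The same RNA may therefore be counted under more than 1 gene of the run. The run on chromosome 12 held GDF3, DPPA3 and NANOG, of which DPPA3 lost its call without the second library of 48 h (adjusted p 0.15), and the run on chromosome 7 held CAV2, CAV1 and MET. The single run of higher genes held PTS, NCAM1 and TTC12 on chromosome 11, of which PTS lost its call without the second library of 48 h (adjusted p 0.16) and TTC12 without the first (0.21). Genes of this paragraph were named for their position, after their values were seen, and no test of clustering was made.

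The share called was counted by gene type, with no test between types. Of 762 tested antisense genes 24 were higher and 18 lower, together 5.51%, and of 630 lincRNAs 19 were higher and 44 lower, against 12.5% of 13461 protein-coding genes. Host genes of small RNAs were split at 4 higher (0 to 7 with 1 library left out) and 4 lower (4 to 6) of 37. MIR205HG, the host of miR-205, was at 239 and 306 in E8 and at 51.8 and 42.6 after XMD892, 5.77-fold lower. MIR34AHG, the host of miR-34a, was 3.17-fold lower, and SNHG26 2.44-fold lower. The values are those of the host transcripts and not of the small RNAs.

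Several families that serve growth and division had few calls with all libraries in the fit. Of 92 genes of ribosome biogenesis and RNA polymerase I 0 were called by limma, with 80% of log2 fold changes between -0.21 and 0.30. At an unadjusted limma p under 0.05 there were 9, and edgeR and DESeq2 on recovered reads called 0 each. Of 58 mitosis genes 1 was called, CKS1B, named as the only one, and it lost its call without the first library of 48 h (adjusted p 0.25). The middle 80% of that list lay between -0.18 and 0.20, against -0.67 and 0.55 over all tested genes. Proteasome subunits had 1 call in 47, F-box proteins 1 in 59, KLHL and KBTBD proteins 1 in 43 and mitochondrial carriers 1 in 42. Without E8 replicate 2, where 24.9% of all tested genes were called, the first, the proteasome and the carrier list were no longer low. There ribosome biogenesis had 23 calls of 92, proteasome subunits 12 (25.5%), mitochondrial carriers 13 (31.0%), KLHL and KBTBD proteins 7 (16.3%), mitosis 8 (13.8%) and F-box proteins 7 (11.9%). Of 17 G1 cyclins, kinases and inhibitors 3 were higher (1 to 4 with 1 library left out) and 2 lower (1 to 3). CDKN1A, the inhibitor p21, was at 151 and 189 in E8 and at 58.3 and 63.5 after XMD892, 2.79-fold lower. CDKN1C was called higher and CDK6 lower, and they lost their calls without the second (0.096) and the first library of 48 h (0.11).

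Called genes differed from the rest in length as well. The median transcript was 2824 bases long in genes called higher, 4178 in genes called lower and 3382 in genes not called. Of 5 length classes, the longest had 340 of 3209 genes lower and 86 higher, and the shortest 147 of 3213 lower and 214 higher. The gap in higher calls between these classes was wide without E8 replicate 2 and slight without E8 replicate 1. Lower calls were more frequent in the longest class than in the shortest in both settings. Lower calls also varied with level, in 5 classes by the mean over the 4 libraries. They numbered 382 of 3276 genes at means of 41.4 to 206, 144 of 3276 in the lowest class and 147 of 3276 in the highest. The parts of length and level in the calls, and in the counts of gene families, were not tested.

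The companion libraries at 12 and 24 h show when the levels of 48 h were reached. Their E8 controls are those of 48 h, and 12 h has 1 library, so these values are given as a description. KAT7 was already low at 12 h, at 2237, and ETS1 at 280. TXNIP stood at 222 (12 h) and then 260 and 219 (24 h), so its gain appeared between 24 and 48 h. H1F0, at 1743 and then 1484 and 2222, had the same course, and PRTG, at 95.5 and then 112 and 138, was near its E8 level until 48 h. In a further set 12 h was the highest point. COL12A1 was at 1201 at 12 h, above both E8 libraries, then 361 and 445 (24 h) and 157 and 149 (48 h). CAV1 followed with 790, then 361 and 326, then 123 and 109. MT1G was at 1488, then 709 and 633, then 274 and 179. ACTA1, COL8A1 and CPLX2, the last a regulator of vesicle fusion, had the same order, with CPLX2 at 311, then 80.2 and 123, then 41.0 and 29.8 against 107 and 127 in E8. NRP2 stood at 1306 and then 1018 and 977, above its E8 level, before it fell to 502 and 443. CALD1 was at 6048 at 12 h, above both E8 libraries, and below both at 24 h, at 3314 and 3154.

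**Figure D5:**
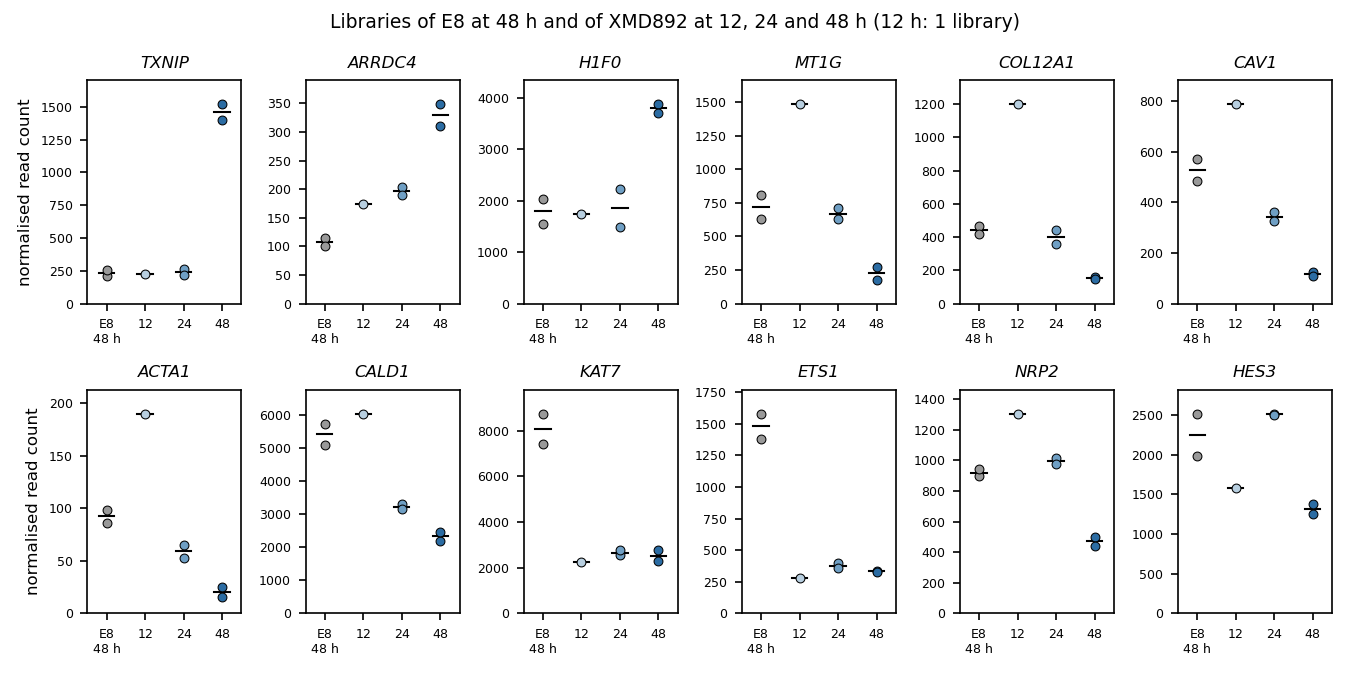
Normalised read counts (vertical axes from 0, one scale per gene) of 12 genes in E8 at 48 h (grey) and after 12, 24 and 48 h of XMD892 (blue, darker with time; horizontal axes), each point 1 library and each dash a mean. TXNIP stays near 222 until 24 h and reaches 1522 and 1403 at 48 h, whereas COL12A1 reaches 1201 at 12 h and 157 and 149 at 48 h.

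The counting method limits some of these values. Whether the authors counted by strand is not given in the sources used here, and some named genes share exon bases with a neighbour. KAT7 shares 295 bases with FAM117A on the opposite strand, TUBB6 638 with AFG3L2, LHX4 1574 with ACBD6, TUBA4A 627 with STK16 and MFAP4 103 with MAPK7. SNHG14 shares 186 bases with UBE3A on the opposite strand and 141 with SNRPN on the same strand. FEZF1 shares 611 bases with FEZF1-AS1, PARP9 139 with DTX3L and TIMP4 170 with SYN2, each on the opposite strand. Reads from stretches on opposite strands cannot be told apart if strand was not used.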

How the data were processed

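Poly(A) RNA of H1 cells was selected with oligo(dT) and sequenced in pairs on an Illumina NextSeq, per the labels' protocols. The submitters' processing notes name Trimmomatic 0.36, STAR, featureCounts 1.5.3, DESeq2 1.26.0 and the build hg38, while the annotation, the use of strand and the treatment of shared reads are not given in the sources used here. The deposited values are a signal, normalised read counts per gene in which the authors divided each library's reads by a factor of its own. Whole reads could be recovered by dividing by the value of 1 read (within 0.1 of a whole number). The 2 columns of the table that match no sample here were not used. Of 19775 genes 97.7% matched GENCODE 29, which gave positions, types, GC content and length on GRCh38.

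Genes averaging at least 10 in the 4 compared libraries were tested with limma 3.58.1 (R 4.3.3) on log2(normalised read count + 1), with 1 mean per group over 7 libraries, a trended prior variance and Benjamini-Hochberg adjustment. Residual degrees of freedom were 3, and the prior added 18.8. Fold changes on that scale understate the change of low genes. The 12 h group has 1 library and adds nothing to the spread. The procedure was tested on simulated data. Gene lists were described by counts and medians, with no set test. The members and lists were chosen with earlier results of these data known. Lists taken by symbol also hold some genes outside the family. Examples are ITGB3BP, ITGB1BP1 and ITGB1BP2 (integrins), COL4A3BP (collagens), KCNQ1OT1 (potassium channels) and GRID2IP (ligand-gated channels), none of which was called. Named genes were the 25 largest fold changes each way among called genes with groups apart and a mean of 100 or more, the 15 largest differences each way, up to 6 called genes each way and the 3 most abundant genes of each list, markers, and the target and its kinase; others are said to be named after their values were seen. The alternatives were other pseudocounts, filters, scalings and tools (edgeR 4.0.16, DESeq2 1.42.0), robust moderation, only the 4 libraries, a replicate block, removal of each library's GC trend, and leaving out each library. Promoter sequences are from RefSeq, where 3 of the 9 listed metallothioneins matched.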

Additional observations from a re-analysis of the deposited data

How the results depend on the processing

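The 1910 calls (840 higher, 1070 lower) moved by more than 1.5 times with the GC correction and with single libraries. Leaving out 1 library gave 772 to 4075 calls, 213 to 2399 higher and 559 to 1676 lower, and the highest counts came without E8 replicate 2. With the GC trend of each library removed there were 3113 calls (1395 higher, 1718 lower), with E8 replicate 2 also left out 3086 (1581 higher), and with E8 replicate 1 left out instead 1694 (676 higher, 1018 lower). The cause was not tested. Fits with the replicate number as a block called 2037 genes (930 higher), and 2629 with the GC trend removed too. The numbers do not pair the libraries: deviations of same-numbered libraries correlated at -0.032, -0.043 and -0.067. DESeq2 on recovered reads called 1562 genes. Genes that were not called changed sign: MAPK7 to 0.00 with edgeR, 0.01 without E8 replicate 2 and, with the GC trend removed, without E8 replicate 1, and 0.09 without the first library of 48 h; POU5F1 to -0.01 under quantile normalisation, -0.10 without E8 replicate 1 (0.44 without E8 replicate 2) and -0.12 with the GC trend removed too; and MT1X to 0.15 without the first library of 48 h (-1.39 without the second). With 2 libraries a side, leaving out 1 leaves a lone library that is assumed to vary like the others.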
